A study of Mus musculus with 12 samples.

Results

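Of 29030 genes in the count tables of a cardiac fibroblast study, 7 are described here: Nppb, Sstr5, Car6, Trim54, Krtap4-16, Prr9 and Gm19410. They were picked by symbol because their counts were low in 24 h vehicle libraries and high in 24 h treated libraries, so those values are given as a description and carry no test. RNA was sequenced from primary heart fibroblasts of C57BL/6 mice kept in serum-containing medium. The agent was MCB-613-10-1 at 6 µM, derived from MCB-613, against ethanol vehicle. Each was given for 4 h or for 24 h, which makes 4 groups of 3 libraries. The labels give neither the age or sex of the mice nor whether replicates were separate cultures, so p-values reflect the spread among these libraries alone. The lowest and highest library totals were 26869195 and 31596784 counts at 4 h, and 25016754 and 34877090 at 24 h.

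The description of these genes as nearly silent until a late switch holds in part. Trim54 was close to that, with 2 counts over the 3 vehicle libraries at 4 h and 0 at 24 h. Car6 and Gm19410 were not silent, with 754 and 843 counts over the 4 h vehicle libraries, and Nppb and Krtap4-16 had 125 and 108. In all 7 genes the mean level in vehicle was lower at 24 h than at 4 h, in Trim54 by those 2 counts alone. The genes were picked for low 24 h vehicle counts, so this fall is a description as well. The contrast at 24 h thus has a lower vehicle side as well as a higher treated side.

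The 7 genes belong to tissues other than connective tissue in their best known roles. Nppb encodes brain natriuretic peptide, a hormone that heart muscle secretes when stretched and that acts through guanylyl cyclase receptors to lower blood volume and pressure. Sstr5 encodes a somatostatin receptor, a G protein-coupled receptor that restrains hormone release in pituitary and pancreatic islet cells. Car6 encodes the secreted carbonic anhydrase of saliva, and in mouse cells an intracellular form of it is known to be induced by stress through the factor CHOP. Trim54 encodes MURF3, a RING-finger protein of microtubules and Z-discs in striated muscle. Krtap4-16 encodes a keratin-associated protein, one of the cysteine-rich proteins that crosslink hair keratins. Prr9 encodes a proline-rich protein in the epidermal differentiation complex, the cluster of genes for the cornified envelope of skin. Gm19410 is a predicted protein-coding gene to which no role is assigned here.

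Upstream sequence was at hand for 6 of the 7 genes, all but Sstr5, from RefSeq on GRCm38.p6, a build other than the GRCm39 of the count tables. The 250 bases before the annotated start are shown for 4 genes, 5′ to 3′ on the strand of the gene, because 3 of them share the letters of an AP-1 element and the Nppb promoter is well studied in heart muscle. Capitals mark matches, on either strand, to the letters TGANTCA of an AP-1 element, to those of a box named TATA written as TATAAA, to AGATAA as bound by factors of the GATA family, to the muscle element called MCAT with letters CATTCC, and to the E-box CACGTG.
Krtap4-16, chr11:99851606-99851855, minus strand: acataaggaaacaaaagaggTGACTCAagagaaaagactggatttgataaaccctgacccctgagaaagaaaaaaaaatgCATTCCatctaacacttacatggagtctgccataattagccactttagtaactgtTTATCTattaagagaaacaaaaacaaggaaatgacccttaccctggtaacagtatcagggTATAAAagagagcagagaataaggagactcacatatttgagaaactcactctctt
Trim54, chr5:31116362-31116611, plus strand: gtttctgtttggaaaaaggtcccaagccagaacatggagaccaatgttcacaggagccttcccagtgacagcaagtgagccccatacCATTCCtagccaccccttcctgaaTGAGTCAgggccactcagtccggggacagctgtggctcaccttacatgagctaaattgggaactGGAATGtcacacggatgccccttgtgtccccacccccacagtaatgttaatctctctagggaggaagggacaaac
Prr9, chr3:92123948-92124197, minus strand: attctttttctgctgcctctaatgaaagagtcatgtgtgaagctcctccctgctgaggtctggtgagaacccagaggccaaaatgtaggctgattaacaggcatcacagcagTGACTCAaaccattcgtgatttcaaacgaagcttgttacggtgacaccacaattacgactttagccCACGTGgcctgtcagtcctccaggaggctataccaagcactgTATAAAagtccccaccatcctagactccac
Nppb, chr4:147985650-147985899, plus strand: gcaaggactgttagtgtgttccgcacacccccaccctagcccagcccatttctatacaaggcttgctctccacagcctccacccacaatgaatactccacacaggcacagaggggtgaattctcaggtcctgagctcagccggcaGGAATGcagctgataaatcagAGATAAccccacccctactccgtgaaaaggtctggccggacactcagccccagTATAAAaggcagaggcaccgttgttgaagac

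AP-1 letters lay in 3 of the 6 windows, those of Krtap4-16, Trim54 and Prr9, and in 6.75% of all 32851 RefSeq windows of the same length. TATA letters lay in Krtap4-16, Prr9 and Nppb and in 12.4% of all windows, starting 30 and 31 bases before the start in Prr9 and Nppb and 55 bases before it in Krtap4-16. GATA letters were found in Krtap4-16 and Nppb (9.99% of all windows), MCAT letters in Krtap4-16, Trim54 and Nppb (12.6%) and E-box letters in Prr9 and Car6 (6.02%). Gm19410 held none of the motifs searched. For Trim54 and Gm19410 the bases just after this RefSeq start were not found in the GENCODE transcripts at hand. None of the 6 windows held the core of the antioxidant response element (TGACNNNGC, 10.2% of all windows), the cyclic AMP response element (TGACGTCA, 1.55%), the ATF4 composite element (TGATGNAA, 3.45%) or a heat shock element (its short form GAANNTTC, 6.69%, or the longer 3-unit form that contains it, 0.466%). The AP-1 letters can overlap those of the antioxidant element, and no marked matches overlap in the windows shown. GC content ran from 36.4% in Krtap4-16 to 64.0% in Gm19410, with a median of 52.4% over all windows. A match in letters is not a binding site, and a missing match says only that the letters are not in this window.

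At 24 h the treated libraries lay above all vehicle libraries in all 7 genes, a separation seen in 37.6% of the genes tested at that time. The quasi-likelihood test of edgeR called all 7 higher, against 36.7% of 15575 genes tested. Both counts restate how the genes were picked, and all but Car6 and Gm19410 passed the filter on low counts through their treated libraries alone. Levels below are counts-per-million (CPM) after TMM scaling over the 12 libraries, as mean ± SD over 3 libraries. Ratios are of group means, and the range after a ratio is a 95% exact (Clopper-Pearson) interval from the summed counts, which covers counting error only.

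**Figure D1:**
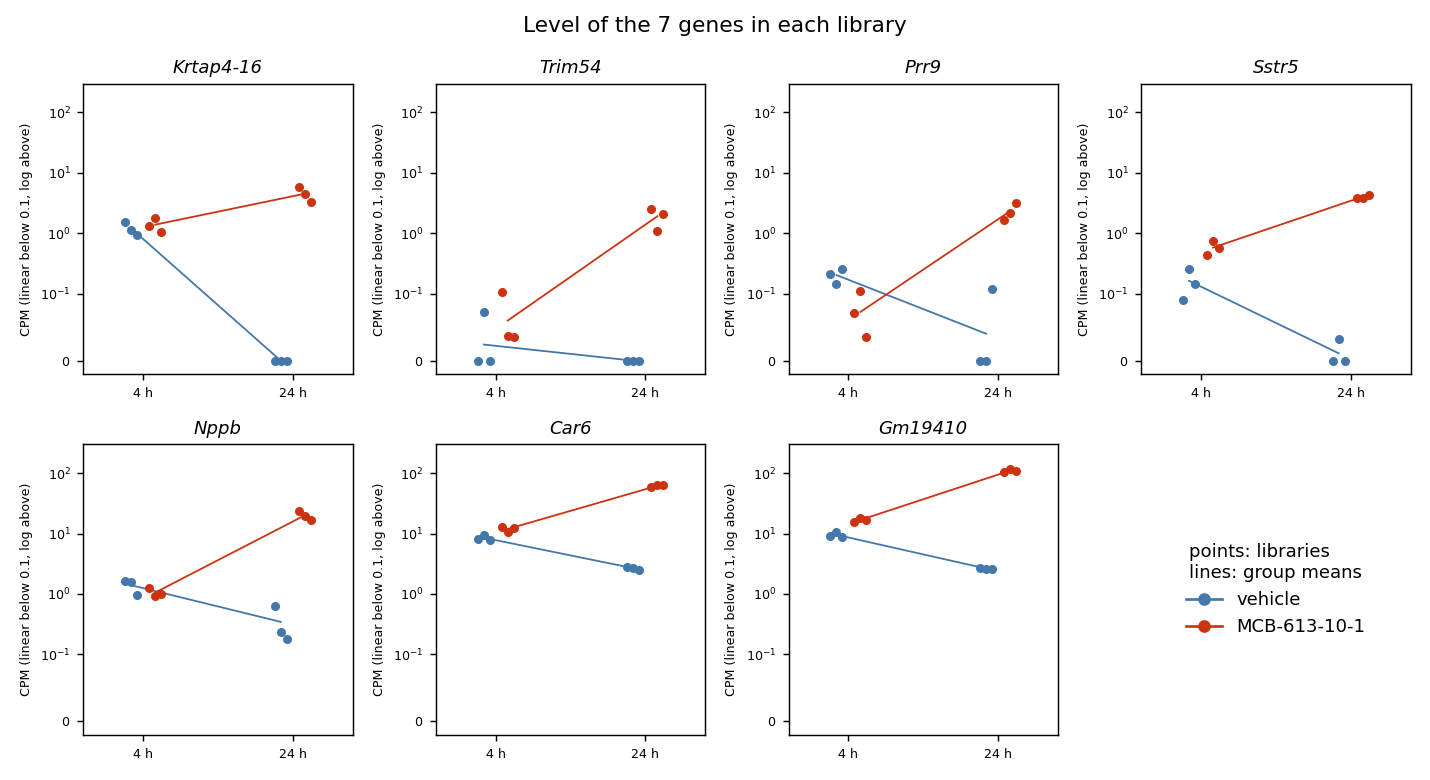
CPM of each gene in each library, with time on the x axis and a y axis that is linear below 0.1 and logarithmic above. Points are libraries and lines join group means. Treated libraries at 24 h lie above every other library of the same gene, and the vehicle line falls from 4 h to 24 h in all 7 panels.

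The hormone gene Nppb (ENSMUSG00000029019, GRCm39 chromosome 4, 148070245 to 148071662, plus strand) had 578, 592 and 386 counts in the treated libraries at 24 h and 23, 7 and 6 in vehicle. At 4 h there were 54, 44 and 27 counts in vehicle and 35, 25 and 28 in treated libraries, so these groups overlapped. In CPM this was 1.399 ± 0.369 in vehicle and 1.05 ± 0.171 in treated libraries at 4 h. At 24 h vehicle stood at 0.345 ± 0.241 and treated cells at 20.04 ± 3.40. The treated mean at 24 h was thus 58.1 times that of vehicle (40.2 to 80.2), and 14.3 times that of the 4 h vehicle (11.8 to 17.2). Vehicle replicate 1 at 24 h was the highest of its group, and without it the ratio at 24 h was 97.1.

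Among the 5 other natriuretic system genes tested at 24 h, 3 fell, among them both receptors that bind brain natriuretic peptide. Nppa, which encodes atrial natriuretic peptide and lies 13516 bases downstream on the same strand, had 4, 3, 1 and 3 counts over the libraries of vehicle 4 h, treated 4 h, vehicle 24 h and treated 24 h. Nppc, the gene of the C-type peptide, had 15, 7, 91 and 1 counts in the same order and was too low for the test. Npr3, the clearance receptor that removes natriuretic peptides, fell at 24 h from 77.8 ± 2.16 to 9.64 ± 2.23 CPM (log2 fold change -2.99, SE 0.13, edgeR adjusted p = 4.65e-08). It had already fallen at 4 h, by 0.53 on the log2 scale (edgeR adjusted p = 0.00373). Npr1, the guanylyl cyclase that binds brain natriuretic peptide, was low and fell at 24 h from 0.966 ± 0.156 to 0.306 ± 0.222 CPM (-1.63, SE 0.47, edgeR adjusted p = 0.00406). Leaving out 1 library gave log2 fold changes from -2.22 (treated replicate 1) to -1.23 (treated replicate 3). Npr2, the receptor of the C-type peptide, stood at 84.1 ± 2.20 and 81.6 ± 1.38 CPM at 24 h (-0.03, edgeR adjusted p = 0.544). Furin, a protease that cleaves the precursor of brain natriuretic peptide, rose by 0.42 (SE 0.04, edgeR adjusted p = 3.34e-08).

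Mme, the peptidase neprilysin, fell at 4 h (-1.15, SE 0.30, edgeR adjusted p = 0.0420) and at 24 h (-1.82, SE 0.64, edgeR adjusted p = 0.0232) from low levels. Its 4 h call was lost without vehicle replicate 1 or 3 (edgeR adjusted p = 0.0626 and 0.123) or without treated replicate 1, 2 or 3 (0.0705, 0.130 and 0.175). Its 24 h call was lost on leaving out vehicle replicate 1 or 3 or treated replicate 2 (edgeR adjusted p = 0.0783, 0.0570 and 0.0983), and its log2 fold change ran from -2.72 without treated replicate 3 to -1.26 without treated replicate 1. Over the natriuretic system without Nppb, 5 of 9 genes were tested at each time. At 4 h 0 rose and 2 fell (edgeR, median log2 fold change 0.09), and at 24 h 1 rose and 3 fell (median -1.63). Over all tested genes the medians were -0.01 and -0.02, with 3.45% called higher and 3.71% lower at 4 h, and 36.7% higher and 38.0% lower at 24 h. Npr1 and Mme had few treated counts and passed the filter on low counts at 24 h through their vehicle libraries. The count and median at 24 h, and the values of Npr1 and Mme there, thus describe the genes that passed and not the system.

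The receptor gene Sstr5 (ENSMUSG00000050824, chromosome 17, 25708849 to 25716262, minus strand) had 94, 118 and 98 counts in treated libraries at 24 h and 0, 1 and 0 in vehicle. Its 4 h counts were 3, 7 and 4 in vehicle and 12, 20 and 16 in treated libraries, with no overlap. The levels were 0.163 ± 0.0825 and 0.578 ± 0.157 CPM at 4 h, a ratio of 3.56 (1.97 to 7.15), and 0.0110 ± 0.0191 and 4.01 ± 0.243 CPM at 24 h. With 1 count in the 24 h vehicle group the ratio there was 364 (71.5 to 15894). Without vehicle replicate 2, which held that count, the treated mean was at least 93.7-fold higher, taking 3 counts over the group as the limit of an empty group. Against 4 h vehicle the ratio was 24.7 (14.8 to 46.8). Among the 4 less expressed genes, the treated libraries of Sstr5 at 24 h were the closest together. Their coefficient of variation was 6.05%, against 28.1% in Krtap4-16, 33.3% in Prr9 and 38.9% in Trim54. Counting error alone at such counts is larger than 6.05%, so this closeness is not read as a trait of Sstr5.

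The other 6 genes of the somatostatin system were too low to enter the test at either time. Sstr2 had 26, 30, 11 and 13 counts over the 3 libraries of vehicle 4 h, treated 4 h, vehicle 24 h and treated 24 h, Sstr3 had 4, 4, 9 and 11, and Sstr4 had 36, 19, 11 and 3. Cort, which encodes the related ligand cortistatin, had 7 counts in 24 h vehicle and 1 in 24 h treated libraries.

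The enzyme gene Car6 (ENSMUSG00000028972, chromosome 4, 150271472 to 150285789, minus strand) had 1463, 1897 and 1441 counts in treated and 102, 82 and 84 in vehicle libraries at 24 h. Counts at 4 h were 354, 287 and 354 in treated and 270, 263 and 221 in vehicle libraries, and the groups were separate at both times. Vehicle stood at 8.54 ± 0.830 CPM at 4 h and 2.67 ± 0.116 at 24 h, and treated cells at 11.9 ± 1.11 and 61.9 ± 1.74. The ratio of treated to vehicle was 1.39 at 4 h (1.27 to 1.54) and 23.2 at 24 h (20.5 to 26.3), and 24 h treated over 4 h vehicle gave 7.24 (6.73 to 7.86). The counts are per gene and do not separate the secreted form from the intracellular one. Ddit3, which encodes CHOP and was looked up after the values of Car6 were seen, went from 70.8 ± 5.96 to 415 ± 46.0 CPM at 24 h (log2 fold change 2.56, SE 0.09, edgeR adjusted p = 2.32e-08). At 4 h Ddit3 stood at 143 ± 25.3 CPM in vehicle and 204 ± 7.96 in treated libraries (0.51, SE 0.11, edgeR adjusted p = 0.0199). A link between CHOP and the level of Car6 was not tested.

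Of the other 15 carbonic anhydrase genes, 10 were tested at each time. At 4 h edgeR called 0 of them (median log2 fold change 0.03), and at 24 h 1 rose and 6 fell (median -0.87), beside 36.7% higher and 38.0% lower over all genes. Genes with few treated counts, among them Car2, Car9 and Car11, passed the filter on low counts at 24 h through their vehicle libraries. The count and median at 24 h, and the values of these genes, thus describe the genes that passed and not the family. The riser was Car7, a cytosolic form, from 0.923 ± 0.241 to 1.87 ± 0.514 CPM (1.04, SE 0.31, edgeR adjusted p = 0.00601). Car2, the widespread cytosolic form, fell from 2.40 ± 0.0731 to 0.335 ± 0.203 CPM (-2.85, SE 0.36, edgeR adjusted p = 5.86e-07). At 4 h Car2 was not called (-0.71, edgeR adjusted p = 0.0626). The membrane form Car12 fell by 1.25 (SE 0.19, edgeR adjusted p = 8.36e-06). Car9, the form induced by low oxygen, fell by 1.20 (SE 0.49, edgeR adjusted p = 0.0348), a call that ended with DESeq2 (0.126), when vehicle replicate 2 was left out (0.236) or treated replicate 1 or 2 (0.102 and 0.120).

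The muscle gene Trim54 (ENSMUSG00000062077, chromosome 5, 31274056 to 31294974, plus strand) had 62, 33 and 48 counts in treated libraries at 24 h and 0 in each vehicle library. In the 4 h libraries it had 0, 2 and 0 counts in vehicle and 3, 1 and 1 in treated libraries. The level at 24 h was 1.91 ± 0.743 CPM in treated cells, at least 63.9-fold above vehicle, for which 3 counts over the group set a limit of 0.0299 CPM. Against the 2 counts of the 4 h vehicle the ratio was 79.3 (22.2 to 680). Leaving out 1 empty vehicle library lowers the bound because fewer reads were searched, to 40.3 at the lowest, without vehicle replicate 1.

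The nearest relatives of Trim54 stayed low. Trim55, which encodes MURF2, had 8, 0 and 6 counts in the treated libraries at 24 h and 0 in every other library. Trim63, which encodes MURF1, had 7, 7, 9 and 4 counts over the 3 libraries of vehicle 4 h, treated 4 h, vehicle 24 h and treated 24 h. Fbxo40, a muscle ubiquitin ligase subunit, rose at 4 h from 1.22 ± 0.580 to 5.11 ± 0.996 CPM (log2 fold change 2.06, SE 0.29, edgeR adjusted p = 0.00149) and at 24 h from 0.422 ± 0.108 to 1.85 ± 0.131 CPM (2.12, SE 0.34, edgeR adjusted p = 1.41e-05). Fbxo30 rose by 0.61 at 4 h (edgeR adjusted p = 0.0119, and 0.0680 without treated replicate 1) and by 1.51 at 24 h (1.17e-14). Traf6, a ubiquitin ligase of immune signaling, rose by 1.61 at 24 h (edgeR adjusted p = 4.49e-14), and Asb2, a ligase subunit of muscle development, fell by 1.97 (8.97e-06). Of the 12 muscle ubiquitin ligase genes other than Trim54, 7 were tested at each time, of which 2 rose and 0 fell at 4 h (median -0.02) and 4 rose and 2 fell at 24 h (median 0.89). The call rates over all genes were 3.45% higher and 3.71% lower at 4 h, and 36.7% higher and 38.0% lower at 24 h.

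The hair gene Krtap4-16 (ENSMUSG00000046474, chromosome 11, 99741481 to 99742434, minus strand) had 142, 134 and 75 counts in treated libraries at 24 h and 0 in each vehicle library. The 4 h libraries held 51, 31 and 26 counts in vehicle and 37, 48 and 30 in treated libraries, and these groups overlapped. The level in treated cells went from 1.39 ± 0.365 to 4.51 ± 1.27 CPM, 3.25 times (2.65 to 4.09), while vehicle went from 1.20 ± 0.311 CPM to no count. With the limit of 3 counts over the group, vehicle was at least 40.1-fold lower at 24 h than at 4 h. The treated cells at 24 h were at least 151-fold above their vehicle, with a lowest bound of 95.2 without vehicle replicate 1, but 3.76 times above 4 h vehicle (2.98 to 4.64). Among 57 other keratin-associated protein genes annotated, Krtap4-9, the neighbour of Krtap4-16, had 14, 18, 0 and 4 counts over the 3 libraries of vehicle 4 h, treated 4 h, vehicle 24 h and treated 24 h. None of the 57 was tested. The Krtap4 genes are near copies of each other, so how reads divide among them is uncertain.

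The epidermal gene Prr9 (ENSMUSG00000056270, chromosome 3, 92029511 to 92031254, minus strand) had 40, 65 and 72 counts in treated libraries at 24 h and 0, 0 and 4 in vehicle. At 4 h it had 7, 4 and 7 counts in vehicle and 2, 3 and 1 in treated libraries, so there the treated libraries lay below vehicle without overlap. Levels were 0.203 ± 0.0545 and 0.0726 ± 0.0380 CPM at 4 h, a ratio of 0.358 (0.115 to 0.930). At 24 h they were 0.0403 ± 0.0698 and 2.31 ± 0.771 CPM. The ratio at 24 h was 57.4 (22.0 to 212), and 11.4 (6.90 to 19.4) against 4 h vehicle. All 4 vehicle counts at 24 h were in replicate 3, and without vehicle replicate 1 or 2 the ratio was 38.3.

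Of 54 other genes annotated to the epidermal differentiation complex, 15 were tested at 24 h, of which 11 rose and 1 fell (median log2 fold change 1.95), beside 36.7% higher and 38.0% lower over all genes. The 11 lie on chromosome 3 like Prr9, which follows from the list, a cluster on that chromosome. At 4 h edgeR called 0 of 12 (median 0.12), beside 3.45% higher and 3.71% lower over all genes. Genes with few vehicle counts, among them Lce1a2, Lce1e, Sprr2g, Lce1f and Lce1l, passed the filter on low counts at 24 h through their treated libraries and had to differ. The count and median at 24 h are thus a description of the genes that passed and not of the complex. The 24 h values of these genes below are a description in the same way. Lce1g, a late cornified envelope gene, had 848, 1039 and 870 counts in treated and 67, 49 and 48 in vehicle libraries at 24 h, a rise of 4.46 (SE 0.11, edgeR adjusted p = 3.73e-17). Lce1f rose by 5.08 (SE 0.30) and Lce1l by 4.76 (SE 0.46). Sprr2g, a small proline-rich protein gene, had 30, 51 and 34 counts in treated libraries and 0, 0 and 1 in vehicle. Lce1a2 and Lce1e had 43 and 36 counts over the treated libraries at 24 h and 0 over vehicle, so they were at least 18.7-fold and 15.1-fold higher. The gene that fell was Tchh, trichohyalin (-0.59, edgeR adjusted p = 0.000852). The Lce1 and Sprr2 genes are families of near copies, and how their reads divide is uncertain.

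In 8 of the 11 that rose, all treated 24 h libraries were also above all 4 h vehicle libraries, as in Prr9. The same separation was seen in 32.9% of all genes tested. The 11 had already been taken as higher at 24 h, so nothing is read from this count. The other 3, Sprr2h, Crct1 and Sprr1a, were below their 4 h level in both groups at 24 h. Sprr1a went from 167 ± 25.1 CPM in 4 h vehicle to 28.1 ± 3.91 in 24 h vehicle and 41.7 ± 1.08 in 24 h treated cells.

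**Figure D2:**
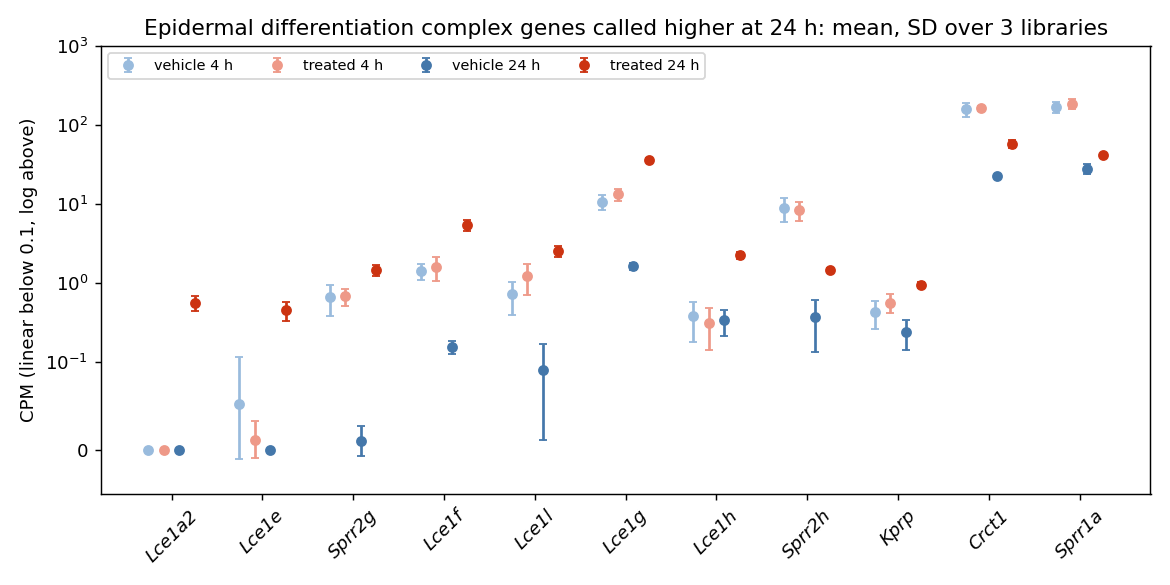
Mean CPM and SD over 3 libraries of the 11 epidermal differentiation complex genes that rose at 24 h, in the 4 groups, on a y axis that is linear below 0.1 and logarithmic above. In 8 genes the treated 24 h point is the highest of the 4, and in Sprr2h, Crct1 and Sprr1a both 4 h points are higher.

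Gm19410 (ENSMUSG00000109372, chromosome 8, 36232944 to 36285201, plus strand) was the most counted of the 7 genes. It had 2601, 3498 and 2465 counts in treated and 101, 77 and 87 in vehicle libraries at 24 h. The 4 h counts were 439, 490 and 471 in treated and 304, 296 and 243 in vehicle libraries, and the groups were separate at both times. Levels went from 9.55 ± 1.01 to 2.63 ± 0.0917 CPM in vehicle and from 16.8 ± 1.26 to 110.0 ± 4.87 CPM in treated cells. The ratio of treated to vehicle was 1.76 at 4 h (1.62 to 1.92) and 41.7 at 24 h (37.0 to 47.4), and 11.5 against 4 h vehicle (10.8 to 12.5). Gm45566, a pseudogene on the opposite strand inside Gm19410, had 14 counts over the treated libraries at 24 h and 0 in the other groups, and whether the counting used strand is not given in the sources used here.

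At 4 h the treated libraries lay above all vehicle libraries in Sstr5, Car6 and Gm19410, 3 of the 7 genes, a separation found in 14.4% of all genes tested at that time. Prr9 and Trim54 did not pass the filter on low counts there, and edgeR called Sstr5 and Gm19410 among the 5 that did, against 3.45% of all genes. The 4 h vehicle libraries also served to pick the genes, so nothing is read from these counts. The call of Gm19410 was made under all 12 other settings tried. That of Sstr5 ended with DESeq2, which called Car6 in its place, without vehicle replicate 1 or 3 and without treated replicate 1, 2 or 3.

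From 4 h to 24 h in vehicle, 6 of the 7 genes were lower at 24 h without overlap, all but Trim54, and 29.4% of all genes were lower in the same way. Low 24 h vehicle counts served to pick the genes, so this count restates the choice in part and nothing is read from it. The ratio of 4 h to 24 h vehicle was 3.20 in Car6 (2.77 to 3.68), 3.62 in Gm19410 (3.14 to 4.16), 4.06 in Nppb (2.70 to 5.88), 5.04 in Prr9 (1.68 to 20.7) and 14.7 in Sstr5 (2.42 to 671). The order of the genes by this fall was not the order of their rise in treated cells from 4 h to 24 h. That rise was 3.25-fold in Krtap4-16, 5.19-fold in Car6, 6.54-fold in Gm19410, 6.94-fold in Sstr5, 19.0-fold in Nppb, 31.8-fold in Prr9 and 31.9-fold in Trim54. The names of the 24 h group means carry a prefix that those of 4 h lack, and whether the libraries of the 2 times differ in more than time cannot be told apart from time itself.

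Levels between the genes were compared as CPM per kilobase of the gene length in the tables. In treated cells at 24 h the order was Car6 (34.1 ± 0.960), Nppb (25.7 ± 4.36), Gm19410 (17.3 ± 0.767), Krtap4-16 (4.72 ± 1.33), Prr9 (1.95 ± 0.652), Sstr5 (1.47 ± 0.0889) and Trim54 (1.33 ± 0.517). Prr9, Sstr5 and Trim54 overlapped with their neighbours in this order, and the higher 4 were separate from theirs. In 4 h vehicle the order was Car6 (4.70 ± 0.457), Nppb (1.79 ± 0.473), Gm19410 (1.503 ± 0.159), Krtap4-16 (1.26 ± 0.326), Prr9 (0.171 ± 0.0461), Sstr5 (0.0595 ± 0.0302) and Trim54 (0.0168 ± 0.0290). The order was the same, but Nppb overlapped with Gm19410, Gm19410 with Krtap4-16, and Sstr5 with Trim54. In treated cells at 4 h the order was Car6 (6.56 ± 0.613), Gm19410 (2.65 ± 0.198), Krtap4-16 (1.45 ± 0.382), Nppb (1.35 ± 0.220), Sstr5 (0.211 ± 0.0574), Prr9 (0.0614 ± 0.0321) and Trim54 (0.0416 ± 0.0285), where Krtap4-16 overlapped with Nppb and Prr9 with Trim54. In 24 h vehicle Car6 led (1.47 ± 0.0637), apart from Nppb (0.441 ± 0.309), which overlapped with Gm19410 (0.415 ± 0.0144). Below a gap came Prr9 (0.0340 ± 0.0590) and Sstr5 (0.00403 ± 0.00699), which overlapped with each other and with Krtap4-16 and Trim54 at 0.

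The share of a gene's expression found in the treated 24 h group, as a percent of the sum of its 4 group means, gives one measure of the pattern. It was 95.8% in Trim54, 88.0% in Prr9, 87.7% in Nppb, 84.2% in Sstr5, 79.1% in Gm19410, 72.8% in Car6 and 63.5% in Krtap4-16. Over 16060 genes with at least 20 counts in the treated 24 h libraries the median was 25.2%, and 335 genes, or 2.09%, had a share at or above that of Krtap4-16. The pattern was thus not particular to the 7 genes by this measure.

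**Figure D3:**
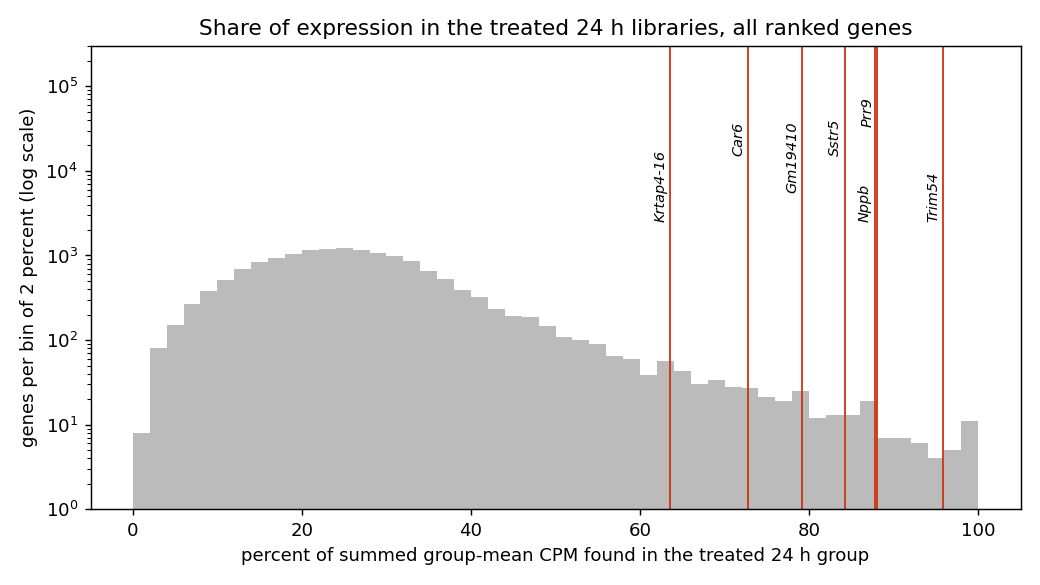
Histogram of the percent of summed group-mean CPM found in the treated 24 h group over 16060 genes, in bins of 2 percent, with a logarithmic y axis of genes per bin. Vertical lines mark the 7 genes, from Krtap4-16 at 63.5% to Trim54 at 95.8%, in the right tail of the distribution around a median of 25.2%.

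The 10 other genes with the largest share were Usp17ld, Acp7, Gm33466, Gm10471, Lce1a2, Olfr315, Gm16434, 4930432J09Rik, Wdr20rt and Gm4631. The first 9 of these had 0 counts in all 9 other libraries and from 22 to 91 over the treated 24 h libraries, and Gm4631 had 248 with 3 elsewhere. By the root mean square difference in log2(CPM + 0.1) over the 12 libraries, the genes nearest to Gm19410 were Arc, a neuronal early gene (0.42), and Acsbg1, an acyl-CoA synthetase (0.64). Acsbg1 was also the nearest to Car6 (0.33), followed by Dhrs9 (0.52). The nearest were Spdye4b (0.36) and Acp7 (0.55) for Trim54, Slc12a1 (0.53) and Taf7l (0.55) for Prr9, and Slc22a3 (0.56) and 4933412O06Rik (0.60) for Sstr5. They were Abcc2 (0.74) and Sel1l3 (0.87) for Nppb, and Hmx3 and Lce1l (0.80 each) for Krtap4-16. Arc, the nearest to Gm19410, stood at 14.2, 19.3, 3.45 and 116 CPM in vehicle 4 h, treated 4 h, vehicle 24 h and treated 24 h.

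Of 15 neighbours, taken as the nearest listed gene on each side and any overlapping one, 11 were too low to be tested at 24 h, with at most 29 counts over a group. Of the 4 tested, Gm11560, a pseudogene 80553 bases upstream of Krtap4-16, rose (log2 fold change 0.42, edgeR adjusted p = 0.00369) and Eno1, an enolase gene 35388 bases upstream of Car6, fell (-0.40, edgeR adjusted p = 2.67e-07). Lor, the loricrin gene 39061 bases downstream of Prr9, stood at -0.21 (edgeR adjusted p = 0.470), and 2510039O18Rik, 38473 bases upstream of Nppb, at 0.07 (0.208). Ucn, which lies 432 bases downstream of Trim54 on the opposite strand and encodes urocortin, had 1, 7, 0 and 0 counts in vehicle 4 h, treated 4 h, vehicle 24 h and treated 24 h.

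**Figure D4:**
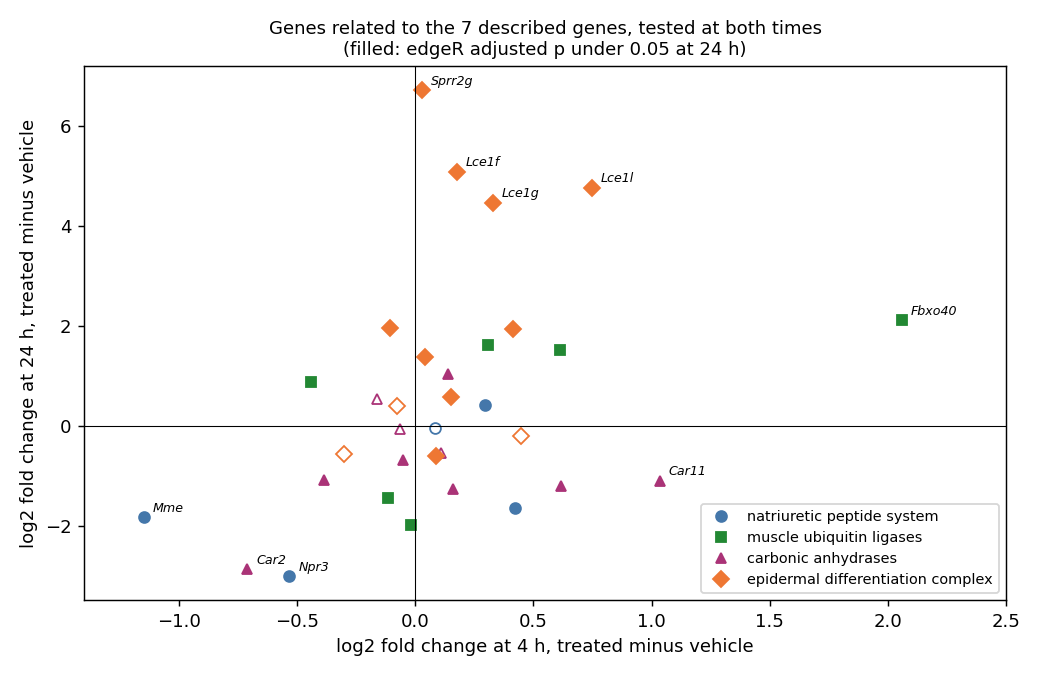
Log2 fold change, treated minus vehicle, at 4 h on the x axis and at 24 h on the y axis, for genes of the natriuretic system, muscle ubiquitin ligases, carbonic anhydrases and the epidermal differentiation complex that were tested at both times. Filled symbols are called at 24 h. Sprr2g, Lce1f, Lce1g and Lce1l lie highest at 24 h and near 0 to 0.75 at 4 h, and Npr3 and Car2 lie lowest.

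Because Nppb and Trim54 are best known in muscle and Krtap4-16 and Prr9 in skin and hair, markers of those cells were read in the same libraries. Summed over 20 cardiomyocyte markers, the level was 26.5 to 30.7 CPM in vehicle and 14.0 to 19.3 CPM in treated libraries at 24 h. Actc1, Ckm, Myh6, Myh7, Myl2 and Myl7 had 0 counts in the treated libraries at 24 h, and Ckm, Myh7, Myl2 and Mb had 0 in vehicle. Tnnt2 made up most of the sum in vehicle, at 17.5 ± 1.86 CPM, and was its largest single part in treated libraries, at 6.45 ± 1.65. Of 4 cardiomyocyte markers tested at 24 h, Tnnt2 and Ldb3 fell by edgeR, and Myl4 (3.10 ± 0.356 and 3.96 ± 0.464 CPM in vehicle and treated libraries) and Tnnc1 (2.02 ± 0.436 and 2.63 ± 0.571 CPM) were not called. Among those not tested, Mb had 0 counts in vehicle and 5 in treated libraries and Csrp3 had 1 and 5. Over 19 keratinocyte and hair keratin markers the sum was 2.49 to 2.91 CPM in vehicle and 2.15 to 3.07 CPM in treated libraries at 24 h, with 13 of the 19 at 0 in treated and 11 in vehicle libraries. Most of the sum was Krt10, at 2.55 ± 0.184 CPM in vehicle and 1.48 ± 0.195 in treated libraries, the 1 gene of the list that was tested, which fell by edgeR. Krt14 and Trp63 had 2 counts each in vehicle and 0 in treated libraries, while Epcam had 3 and 44, Cdh1 had 6 and 29, Krt36 had 1 and 6, and Krt5 and Dsg3 had 2 and 4 each. Over 8 neuroendocrine markers the sum was at most 2.54 CPM in any library.

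Of the labelled cell type, 10 fibroblast markers together held 14121 to 16581 CPM in treated and 14372 to 16187 CPM in vehicle libraries at 4 h. At 24 h they held 6545 to 6913 CPM in treated and 16042 to 19873 CPM in vehicle libraries. There edgeR called 0 of the 10 higher and 9 lower. Leukocyte markers held 317 to 367 CPM in vehicle and 153 to 171 CPM in treated libraries at 24 h, mostly Lyz2, with 2 higher (Cd14 and Csf1r) and 5 lower by edgeR. Endothelial markers held 49.3 to 58.3 CPM in vehicle and 46.2 to 47.5 CPM in treated libraries, with 3 higher and 5 lower. Over all genes tested at 24 h, edgeR called 36.7% higher and 38.0% lower. The part of these other cell types in the levels of the 7 genes was not tested. In bulk RNA, fewer cells of a type and less RNA per cell cannot be told apart. When scaled by library totals alone, the share of higher genes among those called at 24 h was 39.0% and not 49.1%, with the median of all genes shifted by -0.19, and all 7 genes stayed above vehicle.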

How the data were processed

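The authors deposited, per the file headers, raw read counts per gene for 6 libraries at each time, with FPKM values in the same table and in a table of all annotated genes. The submitters' processing notes name HISAT2 2.0.5, featureCounts 1.5.0-p3 and DESeq2, without role or order, and the build GRCm39 (mm39). FPKM was used only as an alternative, and 12 scaled per-sample columns were not used. A gene absent from the table of a time, which lists totals of at least 2 counts, was entered as 0.

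Counts were tested with edgeR 4.0.16 (limma 3.58.1, R 4.3.3) by its quasi-likelihood test with TMM scaling, the default filter on low counts and Benjamini-Hochberg adjustment over all genes, called at an adjusted p under 0.05. Each time was fitted on its own 6 libraries. A contrast of vehicle at 24 h and 4 h was added after seeing the data. DESeq2 1.42.0 was an alternative. Scripts were tested on simulated data. The 7 genes and the gene lists were chosen with earlier results of these data known. Genes of a list were named where called, up to 3 for each list and time by size of change, with neighbours and the genes most alike in pattern. Others were picked after their values were seen. A floor of 3 counts per group and 95% intervals cover counting error only.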

Additional observations from a re-analysis of the deposited data

Results flagged for a closer look

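Among the related genes named, 9 had a response at 24 h that differed from that at 4 h by the interaction test of edgeR on all 12 libraries, given here as log2 differences. The response was lower at 24 h for Npr3 (-2.45, adjusted p = 6.27e-10), Npr1 (-2.05, 0.00212), Asb2 (-1.95, 0.000603), Car2 (-2.14, 0.000349), Car12 (-1.40, 0.000212) and Car9 (-1.81, 0.0279). It was higher for Fbxo30 (0.91, adjusted p = 7.11e-05), Traf6 (1.31, 3.21e-06) and Sprr2g (6.68, 2.96e-06). Such differences were called in 26.7% of all genes upward and 27.1% downward. The genes were named for large changes called at 4 h or 24 h. The differences restate that choice in part, and nothing is read from their number. The 24 h values of Npr1, Mme, Car2, Car9 and Sprr2g are a description, and so are their differences. Lce1e did not enter this fit, and Lce1a2 was not called. The value for Sprr2g rests on 1 count in the 24 h vehicle libraries and depends on the prior count of the fit. The response of Fbxo40 differed by 0.07 (adjusted p = 0.905), and that of Mme by -0.67 (0.462).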

How the results depend on the processing

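All 7 genes were above vehicle and called at 24 h under the 12 alternatives run. Leaving out 1 library gave ratios of 95.2 to 171 for Krtap4-16, lower bounds that drop with fewer vehicle reads. With library totals alone, Car6 had a ratio of 20.4 and a share of 70.9%, and Gm19410 36.8 and 77.6%. Ratios from FPKM were not computed for Krtap4-16 and Trim54, whose vehicle was at 0. At 4 h, 529 genes were called higher and 569 lower. The fit of all 12 libraries gave 1059 and 1139, and leaving out 1 library gave 222 to 921 and 221 to 839. Of the 7 genes, 1 to 2 were called at 4 h without 1 library. Of the related genes, 1 to 3 were called higher and 1 to 2 lower at 4 h without 1 library, with 4 lower by library totals and 1 by limma on FPKM. The uncalled 4 h values of Asb2 (-0.22 to 0.23) and Sprr2g (-0.26 to 0.34) changed sign on leaving out a library, and Sprr2g was -0.0315 by library totals. The 4 h call of Mme also ended in the fit of all 12 libraries (edgeR adjusted p = 0.113) and by limma on FPKM (0.123). Car2 was called at 4 h under 6 alternatives, and Traf6 without vehicle replicate 1. By share of higher calls at 4 h, library totals gave 34.5% against 48.2%.

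The labels do not say whether the replicate numbers pair the samples, and the main fits did not use them. Correlations of same-numbered libraries were 0.0598 to 0.0899 at 4 h and -0.0304 to 0.0221 at 24 h. At 4 h each library correlated best with its own number, at 24 h not. The replicate block gave 920 genes higher and 1033 lower at 4 h, and an adjusted p of 0.0555 for Car9 at 24 h by edgeR. Low vehicle counts limit the ratios of Krtap4-16, Trim54, Prr9 and Sstr5.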
